A study of Mus musculus with 2 samples.

Results

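The nexin-dynein regulatory complex (N-DRC) and the axonemal rulers were followed through 8 genes in fetal mouse airway epithelium: Ccdc39, Ccdc40, Drc1, Drc3, Ccdc65, Gas8, Iqcg and Iqub. The genes were chosen by name, as array probes annotated with the gene's symbol or a former symbol. Ccdc164 (former symbol of Drc1) was absent from the annotation and Lrrc48 (former symbol of Drc3) was present, so that rule found 7 genes with 9 probes. Drc1 was reached through another former symbol, Gm1060, whose transcript is that of Drc1 in RefSeq, which gave 8 genes with 10 probes out of 19747 named genes and 41170 probes.

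The series belongs to a screen for genes downstream of FOXJ1, which switches on motile cilia, and set 2 fetal ages against each other on 1 two-colour array. The E14.5 sample was airway epithelium cut by laser from lung sections of a wild-type male CD-1 fetus of that embryonic day, labelled with Cy3 (green). The E18.5 sample was the same tissue of a wild-type male CD-1 fetus of that later embryonic day, labelled with Cy5 (red). CD-1 is an outbred stock. Epithelium of 1 whole lung was collected per age, from airways inside the lobes, and its RNA was amplified in a single round. Each age had 1 sample, so no difference has a replicate check and no p-value is given. Dye and age cannot be told apart, since the dyes were not swapped. In such tissue, more ciliated cells and more RNA per ciliated cell cannot be told apart either.

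A motile cilium is built around an axoneme, a ring of microtubule doublets around a central pair. Ccdc39 and Ccdc40 form a coiled-coil filament that runs along each doublet and sets the spacing at which radial spokes, inner dynein arms and the N-DRC attach. The N-DRC links neighbouring doublets and, together with the spokes, controls the dynein motors so that sliding becomes bending. In the airway, these parts drive the beating of multiciliated cells that clears mucus, and loss of Ccdc39, Ccdc40, Drc1, Ccdc65 or Gas8 in people causes primary ciliary dyskinesia.

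All 8 genes were brighter at E18.5, by 2.23-fold for Gas8 to 21.9-fold for Drc1. Each of the 10 probes was flagged well above background at both ages and 0 probes of the array were saturated. The values below are normalized intensities in linear units, and the log2 ratio is E18.5 over E14.5. The error beside a ratio is the one the scanner software attached to its own log ratio of that spot, on the log2 scale. It covers the spot and not differences between fetuses, dissections or amplifications.

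**Figure D1:**
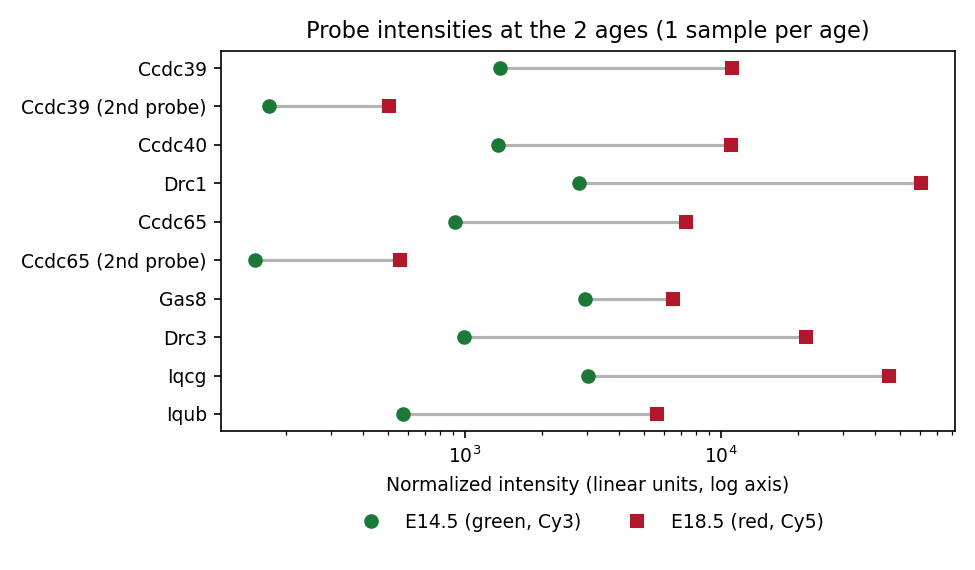
Normalized intensity (linear units, log axis) of the 10 probes for the 8 genes, at E14.5 (green circles) and E18.5 (red squares), 1 sample per age. Every red square lies to the right of its green circle, with the shortest line for Gas8 and the lines of the second Ccdc39 and Ccdc65 probes at the dim end.

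Both rulers stood higher at E18.5, by nearly the same factor with the brighter Ccdc39 probe. Ccdc39, a ruler subunit needed for inner dynein arms and regulatory complexes to dock, had an intensity of 1375 at E14.5 and 11094 at E18.5, by its brighter probe on chromosome 3 from 34004083 to 34004142 (minus strand, mm8). That is a log2 ratio of 3.01 ± 0.34, or 8.07-fold. Its partner Ccdc40 had an intensity of 1351 at E14.5 and 10937 at E18.5, by a probe on chromosome 11 from 119081066 to 119081125 (plus strand, mm8), a log2 ratio of 3.02 ± 0.34 or 8.10-fold. The gap between both log2 ratios, 0.0055, was far inside the spot error. The scanner software's own log2 ratios were 2.89 for Ccdc39 and 2.90 for Ccdc40. A second Ccdc39 probe, annotated with another transcript record, gave a smaller ratio of 1.57. The median over both probes was 2.29, against 3.02 for Ccdc40.

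The 3 genes of the N-DRC core, the coiled-coil base by which the complex sits on its doublet, were further apart than the rulers. Drc1, which anchors that base, had an intensity of 2783 at E14.5 and 60833 at E18.5, a log2 ratio of 4.45 ± 0.46 and the largest of the 8 genes. The array's annotation gave its probe no position. Ccdc65, also called Drc2 and the partner of Drc1 in the base, had an intensity of 913 at E14.5 and 7284 at E18.5 by its brighter probe on chromosome 15 from 98551144 to 98551203 (plus strand, mm8). Its log2 ratio was 2.997 ± 0.34, or 7.98-fold.

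Gas8, also called Drc4, spans the core and was first described as a gene of growth-arrested fibroblasts. It had an intensity of 2932 at E14.5 and 6526 at E18.5, a log2 ratio of 1.15 ± 0.22. This was the smallest ratio of the 8 genes. The scanner software's value was 1.02, so Gas8 passed the 2-fold mark by less than its spot error.

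The other N-DRC members lie in the linker that reaches towards the next doublet. Drc3, a leucine-rich repeat protein, had an intensity of 988 at E14.5 and 21462 at E18.5, a log2 ratio of 4.44 ± 0.47 or 21.7-fold. Iqcg, an IQ-motif protein that binds calmodulin and is also called Drc9, had an intensity of 3016 at E14.5 and 45559 at E18.5. Its log2 ratio was 3.92 ± 0.41, or 15.1-fold, by a probe on chromosome 16 from 32936399 to 32936458 (minus strand, mm8). The 5 genes of the N-DRC proper had a median log2 ratio of 3.92 and included both the highest and the lowest of the set. Iqub, an IQ-motif and ubiquitin-like protein found at the base of a radial spoke rather than in the N-DRC, had an intensity of 571 at E14.5 and 5648 at E18.5, a log2 ratio of 3.31 ± 0.37 or 9.89-fold. Its probe lies on chromosome 6 from 24396079 to 24396138 (minus strand, mm8).

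The probes of Drc3 and Gas8, from the upper and the lower end of the range, are the pair whose 60 bases were placed across a longer genomic stretch and so join separate exons of a spliced transcript. The Drc3 probe covers chromosome 11 from 60203505 to 60205013 and the Gas8 probe chromosome 8 from 126419376 to 126422489, both on the plus strand of mm8, 1509 and 3114 bases. These sequences are shown because a probe over a splice junction reads spliced RNA.
Drc3 probe: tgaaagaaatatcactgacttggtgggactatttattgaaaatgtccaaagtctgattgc
Gas8 probe: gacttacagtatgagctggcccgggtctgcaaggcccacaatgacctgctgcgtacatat

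A ratio, or a bound where only 1 age was above background, was available for 17314 genes. Of these, 17.2% had at least 2-fold higher signal at E18.5 and 10.0% at least 2-fold lower. Of the 8 genes here, 8 were at least 2-fold higher and 0 lower. At 4-fold or more by their brightest probes stood 7 of the 8, Gas8 being the exception, beside 6.90% of all genes. The second probes of Ccdc39 and Ccdc65 were below that mark, at 2.96-fold and 3.69-fold. At 16-fold or more stood 2, Drc1 and Drc3, beside 1.46% of all genes. The median log2 ratio was 3.16 for the 8 genes (3.02 for the 7 found by the rule as written) and 0.06 over all genes. The scanner software's ratio gave another split of all genes, 17.7% higher and 15.2% lower, and placed the median of all genes at −0.06, a shift of −0.12. Relative to the median of all genes, Gas8 was at 1.10 with the reported values and at 1.08 with the scanner software's.

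**Figure D2:**
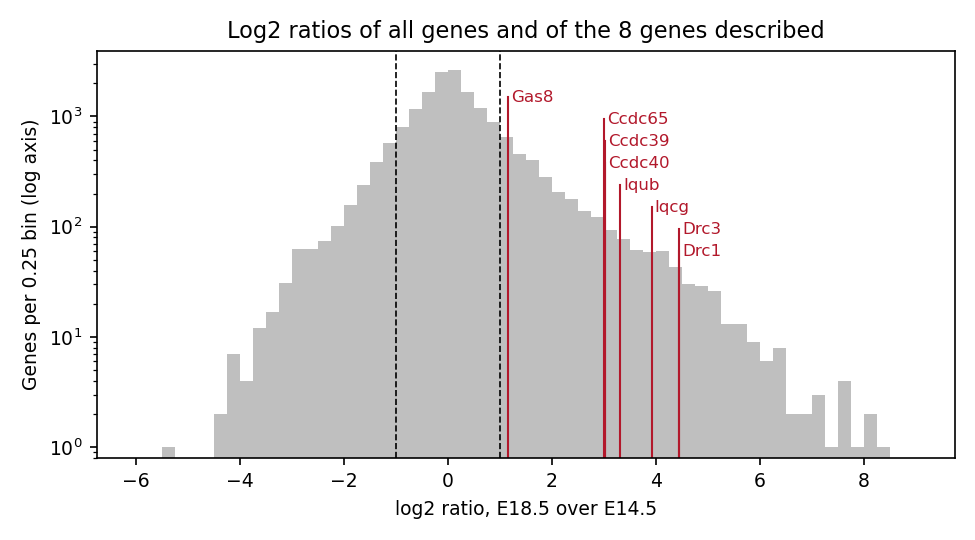
Number of genes per 0.25 bin of the log2 ratio (log axis), grey, with the ratios of the 8 genes in red and dashed lines at 2-fold. Gas8 sits just beyond the upper dashed line, Ccdc65, Ccdc39 and Ccdc40 nearly coincide, and Drc3 and Drc1 lie near 4.45.

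Placed in the ranking of all genes, Drc1 had 0.94% of genes above it, Drc3 0.95%, Iqcg 1.52% and Iqub 2.54%. Ccdc40, Ccdc39 and Ccdc65 had 3.09%, 3.11% and 3.15% above them, and Gas8 14.8%. To read the order, gaps were set against the spread between different probes of a gene, whose median SD of the log2 ratio was 0.33 over 6889 genes and which gives 0.46 for a difference of 2 probes. The gaps between Drc1 and Drc3 (0.0086), Iqub and Ccdc40 (0.29), Ccdc40 and Ccdc39 (0.0055), and Ccdc39 and Ccdc65 (0.015) were within it. The gaps from Drc3 to Iqcg (0.52), from Iqcg to Iqub (0.61) and from Ccdc65 to Gas8 (1.84) were larger than it. The yardstick rests on a median, and many genes have a wider spread. The 2 probes of Ccdc39 had an SD of 1.02 and those of Ccdc65 an SD of 0.79. By its second probe, at 1.89, Ccdc65 lay nearer to Gas8. The gap from Drc3 to Iqcg was within the combined spot error of 0.62.

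Ccdc39 and Ccdc65 each had a second, dimmer probe, and in both genes it gave a smaller ratio. The second Ccdc39 probe, on chromosome 3 from 34012046 to 34012105 (minus strand, mm8), had an intensity of 171 at E14.5 and 505 at E18.5, a log2 ratio of 1.57 ± 0.27. It was annotated with another transcript record than the brighter probe and was assigned to Ccdc39 by symbol only. The second Ccdc65 probe, on chromosome 15 from 98537120 to 98537179 (plus strand, mm8), had an intensity of 151 at E14.5 and 557 at E18.5, a log2 ratio of 1.89 ± 0.31. All 4 probes were thus at least 2-fold higher at E18.5, and the sizes differed by 1.45 for Ccdc39 and 1.11 for Ccdc65. Probe pairs this far apart were uncommon, with a smaller spread in 93.7% of genes with several probes for Ccdc39 and in 87.1% for Ccdc65. In both genes the brighter probe lay downstream in the direction of transcription, by 7963 bases in Ccdc39 and 14024 bases in Ccdc65.

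The ratios of the dim probes moved with the processing. The raw signal of the second probes was 4.002 times the local background in Ccdc39 and 3.56 times in Ccdc65 at E14.5, against 28.2 and 19.7 times for the brighter probes. With a normexp offset of 16 in place of 50, the differences between probes were 1.26 for Ccdc39 and 0.88 for Ccdc65. With the scanner software's ratio, which changes the background treatment and the dye normalization together, the second probes read 1.96 and 2.45, and the differences were 0.93 and 0.50. The part that position along the transcript plays in the rest was not tested, nor was that of the other transcript record in Ccdc39.

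**Figure D3:**
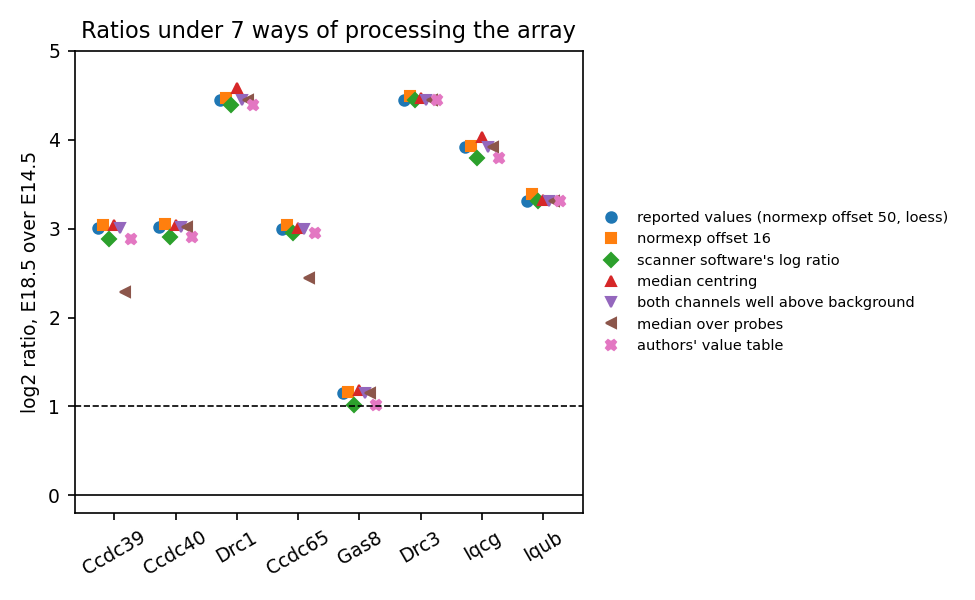
Log2 ratio of each of the 8 genes (vertical axis) under the reported processing and 6 alternatives, with a dashed line at 2-fold. Points of a gene lie close together, except that the median over probes lowers Ccdc39 to 2.29 and Ccdc65 to 2.44, and Gas8 is lowest throughout.

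The start sites of the genes were read in RefSeq (GRCm38.p6), where 8 of 8 had a promoter entry of 250 bases before to 50 after the start. RFX factors, which act with FOXJ1 on ciliary genes, bind the X-box, a pair of inverted half-sites. A loose X-box form was searched on both strands: GTNNCC, a spacer of 0 to 3 bases, then NGNAAC. It was found in 3 of the 8 promoters (Iqub, Drc3 and Ccdc65) and in 5.25% of the 32851 promoters of the table. The forkhead core TGTTTA, on both strands, was found in 1 of the 8 (Iqub) and in 13.4% of all promoters.

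In Iqub, Drc3 and Ccdc65 the X-box match lay at the start site itself, from base −11 to 2, from −2 to 11 and from −13 to −1. A single X-box half-site, GTTGCC on either strand, was looked for after these sequences had been seen. It was found in 3 further promoters (Drc1, Gas8 and Iqcg) and in 12.5% of all promoters. This half-site can lie within an X-box form, but Iqub, Drc3 and Ccdc65 did not hold it. Either pattern occurred in 6 of the 8 and in 15.8% of all. The stretches from base −60 to 15 are shown for these 6, with the X-box form or, where that is lacking, the half-site in capitals. A match of letters is a description and does not show that a factor binds.
Iqub, chr6:24515053-24515127, minus strand: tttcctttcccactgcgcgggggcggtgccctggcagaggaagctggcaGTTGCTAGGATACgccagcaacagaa
Drc3, chr11:60353320-60353394, plus strand: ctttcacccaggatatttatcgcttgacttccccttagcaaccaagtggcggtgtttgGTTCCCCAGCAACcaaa
Ccdc65, chr15:98708134-98708208, plus strand: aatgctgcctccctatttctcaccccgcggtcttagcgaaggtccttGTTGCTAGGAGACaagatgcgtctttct
Drc1, chr5:30281333-30281407, plus strand: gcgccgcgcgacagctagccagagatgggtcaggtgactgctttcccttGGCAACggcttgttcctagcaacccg
Iqcg, chr16:33056172-33056246, minus strand: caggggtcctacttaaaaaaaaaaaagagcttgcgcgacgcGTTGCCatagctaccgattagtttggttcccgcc
Gas8, chr8:123518775-123518849, plus strand: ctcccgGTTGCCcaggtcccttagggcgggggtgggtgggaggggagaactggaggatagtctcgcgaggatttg

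The promoters with a match covered the whole range of ratios, from Drc1 at 4.45 to Gas8 at 1.15, and both rulers, at 3.01 and 3.02, had neither pattern in this window. Within 1000 bases of a start site of the 8 genes, the table held start sites of 2 other genes, both on the opposite strand. Drc3 starts 475 bases from Tom1l2, a gene of endosomal sorting, which had an intensity of 5708 at E14.5 and 4614 at E18.5 (log2 ratio −0.31, other probes up to −0.07). Iqcg starts 267 to 328 bases from Rpl35a, a ribosomal protein gene with several listed starts, which had an intensity of 65006 at E14.5 and 117902 at E18.5 (log2 ratio 0.86, other probes down to −1.34). Neither neighbour was 2-fold higher, by any of its probes, whereas Drc3 and Iqcg had log2 ratios of 4.44 and 3.92.

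The remaining N-DRC subunits were also higher at E18.5, all 7 of 7 on the array by at least 2-fold, with a median log2 ratio of 2.94 beside 0.06 over all genes. For this list and the axoneme lists below, the shares of all genes were 17.2% higher and 10.0% lower. Ccdc153, a small coiled-coil subunit, had an intensity of 945 at E14.5 and 84386 at E18.5, a log2 ratio of 6.48. Fbxl13, an F-box and leucine-rich repeat subunit, had an intensity of 169 at E14.5 and 4563 at E18.5, a log2 ratio of 4.76. Both ratios exceeded that of Drc1, the highest of the 8 genes. For Fbxl13, which was dim at E14.5, the excess was smaller than Drc1's spot error of 0.46. With the scanner software's ratio Fbxl13 was at 5.24 and Drc1 at 4.40. Drc7, a linker subunit, had a log2 ratio of 3.16 from intensities of 107 and 957, the lower of them close to the floor, and its second probe gave 1.12. The scanner software's ratio for the brighter probe was 4.57.

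Further subunits lay lower in the order. Iqca, an ATPase-like subunit with an IQ motif, was at 2.94 (other probe 4.12), and Tcte1, a leucine-rich repeat subunit, at 2.32. Iqcd, an IQ-motif subunit, was at 1.22 (other probe 1.73) and Efcab2, an EF-hand subunit, at 1.18 (other probe 1.34). Efcab2 and Iqcd thus stood beside Gas8 at the low end. Their E14.5 intensities were 1408 and 2258.

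Structures that the rulers place on the doublet were higher in most of their measured genes. Of 13 radial spoke genes and genes of the calmodulin- and spoke-associated complex (of 15 listed), 12 were at least 2-fold higher and 0 lower, with a median log2 ratio of 3.47. Rsph14 was at 5.37, and Cfap91, which ties the spokes to their base, at 5.12 with another probe at 1.70. Rsph3a was at 2.73 (other probes 1.995 and 2.12) and may share signal with its near-identical copy Rsph3b. Rsph6a, a spoke head gene best known from sperm, was near background at both ages, with intensities of 99.3 and 92.4 (log2 ratio −0.10).

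Inner dynein arm genes and their anchors had 14 of 15 measured members (of 18 listed) at least 2-fold higher and 0 lower, with a median log2 ratio of 4.29. With the median over probes in place of the brightest probe, 13 were at least 2-fold higher. The heavy chain Dnah2 was at 4.83 by its brightest probe and between 0.01 and 0.06 by its others, and Cfap57 was at 4.80. Dnah1 was at 2.38 (other probe 1.77). Dnah7b, whose near-identical copy Dnah7a may share its signal, had intensities of 134 and 143, a log2 ratio of 0.09 that was −0.05 with the scanner software's ratio.

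Outer dynein arm genes, which dock independently of the N-DRC, had 8 of 9 measured members (of 12 listed) at least 2-fold higher and 0 lower, with a median of 2.89. With the median over probes, 7 were at least 2-fold higher. The heavy chains Dnah9 and Dnah5 were at 5.04 and 4.78, with other probes down to 0.16 and 0.23. The light chains Dnal1 and Dnal4 were at 2.13 (other probe 1.46) and 0.50. The member median of 3.16 therefore lay between those of the outer and the inner arm lists.

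**Figure D4:**
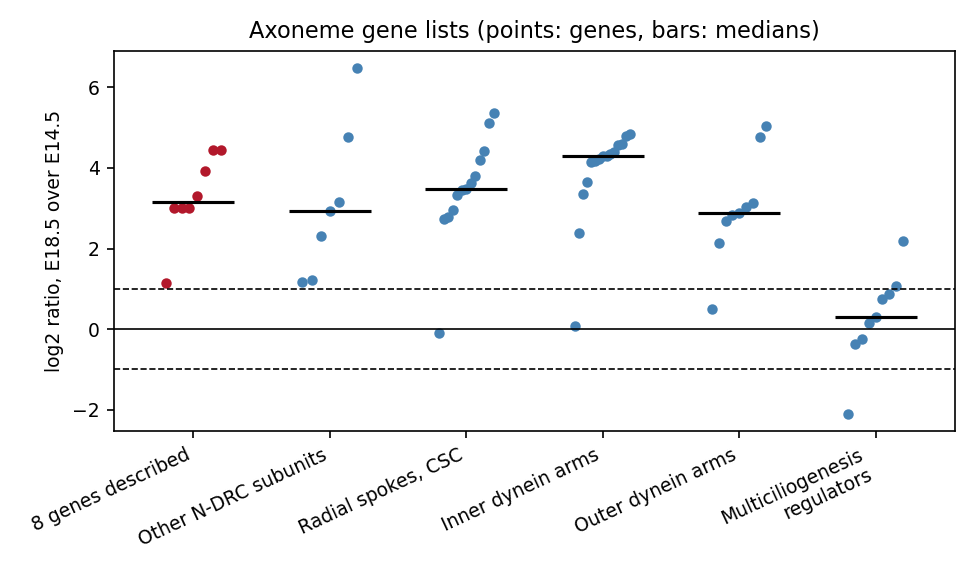
Log2 ratio (vertical axis) of each measured gene in the set described and in 5 related lists, with bars at medians and dashed lines at 2-fold. The axoneme lists lie mostly above the upper dashed line with medians from 2.89 to 4.29, while the regulators centre at 0.30.

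Among the 11 listed genes that control multiciliogenesis, Mcidas and Gmnc were not found on the array. Of the 9 measured, 2 were at least 2-fold higher and 1 lower, with a median log2 ratio of 0.30. These counts are near the shares of all genes, 17.2% higher and 10.0% lower. Foxj1 had an intensity of 5039 at E14.5 and 22922 at E18.5, a log2 ratio of 2.19. By their brightest probes, 7 of the 8 genes described here had a larger ratio, beside 5.94% of all genes. The second probes of Ccdc39 and Ccdc65, at 1.57 and 1.89, were below Foxj1, and the medians over both probes, 2.29 and 2.44, above it. Myb was at 1.06 (other probes from 0.49 to 1.05) and fell below the 2-fold mark with the scanner software's ratio (0.92). Rfx3 was at −0.38 (other probes −0.29 and 0.52), and Tfdp1, a partner of E2F factors, at −2.10 (other probe −1.83).

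Outside the lists, 5 genes lay nearest to the members' median intensities at both ages, by Euclidean distance on the log2 scale over the 2 samples. They were Ass1 (log2 ratio 3.01), Col23a1 (2.86), Vldlr (2.85), Kcnq1 (2.82) and Amy1 (3.24). With 2 samples this likeness says only that a gene had a similar ratio and similar signal.

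Markers of the tissue and of other cell types were read beside these results, against the 17.2% of all genes at least 2-fold higher and the 10.0% at least 2-fold lower. Of 11 epithelial markers, 11 were well above background at both ages, 4 were at least 2-fold higher and 0 lower, and the median log2 ratio was 0.37. They ran from Epcam (−0.75) to Krt18 (1.59), and their intensities summed to 368590 in the E14.5 sample and 580460 in the E18.5 sample. Of 13 markers of multiciliated cells, some of which are also in the lists above, 12 were at least 2-fold higher and 0 lower (median 3.73, sums 32078 and 443382).

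Leukocyte markers were at least 2-fold higher in 11 of 13 and lower in 0, with a median of 2.08 and sums of 10432 and 183026. Lyz2, which is also a type II cell marker, carried most of that sum at E18.5, and without it the sums were 8663 and 36112. Endothelial markers were higher in 4 of 11 and lower in 0, with a median of 0.83 and sums of 31483 and 132439, or 27393 and 60771 without Kdr, the receptor that carried most of the difference. Alveolar type II markers were higher in 9 of 9 (median 4.10, sums 44801 and 532784) and club cell markers in 7 of 8 (median 6.55, sums 38837 and 1602979).

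Mesenchymal and smooth muscle markers were at least 2-fold higher in 0 of 13 and lower in 4, with a median of −0.38 and sums of 574514 and 489614. The 4 lower ones were Myh11 (−2.43), Foxf1 (−2.12), Acta2 (−1.52) and Des (−1.27). Acta2 alone went from 192297 at E14.5 to 66996 at E18.5. That fall was larger than the fall of the sum, so the summed intensity of the other markers rose. Mesothelial markers were higher in 2 of 5 (median 0.13), and their sums of 5943 and 48400 were 968 and 4808 without Msln. Neural markers were higher in 1 of 6 measured, near the share of all genes (median 0.30, sums 4393 and 5215). The part of these cells in the ratios of the 8 genes was not tested.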

How the data were processed

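The deposited scanner tables hold linear spot intensities of both channels, a log10 ratio with its error, and other cells such as control types and flags of 0 or 1. They were made with Agilent Feature Extraction 9.5.3.1, per the submitters' processing notes, on probe positions of mm8, per the file headers. Both samples came with the same table (115 of 115 columns identical), which was read as 1 array. The authors' deposited value table holds linear intensities equal to the scanner's processed signal times 0.339, with a floor of 15.

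Mean intensities were corrected with normexp (offset 50) and normalized by loess with limma 3.58.1 and R 4.3.3, using a span of 0.3 and 4 iterations, which was tested on simulated data. Few spots were changed in that simulation, so it does not cover an array in which many genes change. The offset pulls ratios of dim probes towards 0, and loess hides a shift common to most genes. Control spots (1639) and outliers (160 of 43379 probe spots) were left out. Of 41170 probes, 33096 were named through RefSeq (GRCm38.p6, names only), 24364 by accession, 6307 by symbol and 2425 by an older symbol. A gene took its brightest probe well above background in at least 1 channel. With a probe dim in 1 channel the ratio is a bound. Calls are by size, at 2-fold. Repeated spots of a probe had a median SD of 0.04 on the log2 scale (204 probes), and 75.2% of probes at E14.5 and 78.7% at E18.5 were well above background. The number of arrays, 1, limits the precision.

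The members, lists and tests were chosen with earlier results of these data known. Named are the 8 members, Foxj1, the other N-DRC subunits, the 2 highest and 2 lowest genes of each other list, and the 5 genes nearest in pattern. The epithelial and other cell markers, the promoter neighbours and the regulators not found on the array are named outside that rule. Python 3.11.15, numpy 2.4.6, pandas 2.3.3 and matplotlib 3.10.9 were used.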

Additional observations from a re-analysis of the deposited data

How the results depend on the processing

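Each result was recomputed under 6 alternatives: a normexp offset of 16, the scanner software's log ratio, median centring, only probes above background in both channels, the median over probes, and the authors' value table. All 8 genes stayed at least 2-fold higher at E18.5 under all 6, and Gas8 was the lowest in each, between 1.02 and 1.18. For these genes the filter on both channels repeated the reported values, since all their probes passed it. The value table, a scaled form of the scanner software's signal, repeated that software's ratios. Neither was a separate check of the 8 genes. Drc1 and Drc3 exchanged first place with the offset of 16, the scanner software's ratio and the value table. With the median over probes, Ccdc39 came to 2.29 and Ccdc65 to 2.44. The number of multiciliogenesis regulators at least 2-fold higher went from 2 to 1 with the scanner software's ratio, with the value table and with the median over probes. The share of all genes at least 2-fold lower was 15.2% with the scanner software's ratio. The cause was not tested. With the value table, 17.4% of genes were at least 2-fold higher and 14.9% lower. The other 126 recomputed values stayed within 0.33 (log2 ratios) or 1.5 times (counts and shares). Among these, the median over probes took the inner arm count from 14 to 13 and the outer arm count from 8 to 7. No paired analysis was possible because each age has 1 sample. Signal over local background was 3.56 to 60.1 times for the members' probes at E14.5, which limits the ratios of the dimmest.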
